A study of Rattus norvegicus with 14 samples.

Results

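The genes described here are the heat shock proteins, their DnaJ and BAG cochaperones and the heat shock factors of the rat aorta. They were taken by symbol from the deposited expression table: every row whose name starts with Hsp, Dnaj, Hsf plus a digit or Bag plus a digit, and Cryab, but not the proteoglycan gene Hspg2. This gave 81 of 17019 rows. Of these, 3 belong to the Hsp90 family, 12 to Hspa (Hsp70), 9 to Hspb with Cryab (small heat shock proteins), 2 to Hspd/Hspe (mitochondrial chaperonin), 4 to Dnaja, 13 to Dnajb, 25 to Dnajc, 6 to Bag and 4 to Hsf, and 3 are other Hsp rows. RNA was sequenced from whole aortas of 14 male Dark Agouti rats, 1 library per rat. The 5 uremic rats had lost most of their kidney tissue by 5/6 nephrectomy, lived with uremia for 14 weeks and received alfacalcidol (a vitamin D prodrug), 30 ng at each of 3 weekly doses, in the last 6 weeks. The 4 rats called control with vitamin D had normal kidneys and were given vitamin D at a dose and for a time that the labels do not state. The 5 control rats had no treatment over 14 weeks. A diet rich in phosphate is named as a requirement for calcification, but no label says which rats ate it, so uremia, vitamin D and possibly diet differ together between the uremic and the control group. Rat 27 of the uremic group was sequenced under 2 index sequences, marked as a technical replicate.

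Heat shock proteins are chaperones: they hold unfolded proteins and help them fold or pass them on for degradation. Hsp70 proteins cycle with ATP, DnaJ proteins bring them their clients and start the cycle, and BAG proteins and Hsp110 release the nucleotide. Hsp90 acts later, on kinases and receptors, while small heat shock proteins keep denatured proteins from clumping and, in smooth muscle, bind the contractile apparatus. Under protein stress the factor Hsf1 binds heat shock elements, inverted repeats of the letters GAA, and raises the cytosolic chaperones, whereas stress of the endoplasmic reticulum and of mitochondria raises a chaperone set of its own for each compartment.

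All levels are FPKM (fragments scaled by transcript length and library size). Recovered whole reads per library ran between 1409158 (rat 37, control with vitamin D) and 4737584 (rat 27, uremic), with a median of 55 per gene. Smooth muscle markers were abundant in every library: their sum over 10 genes was 9986 to 21330 FPKM in uremic aortas, 16530 to 29290 FPKM in control aortas with vitamin D and 22510 to 31490 FPKM in control aortas. Macrophage markers (9 of 10 in the table) summed to 511 to 696 FPKM in uremic aortas, against 73.2 to 149 FPKM in control aortas with vitamin D and 60.7 to 160 FPKM in control aortas. Of the 9 tested 9 were called higher in each uremic comparison (11.4% of all genes against control and 7.19% against control with vitamin D). The part of macrophages in the chaperone values was not tested. In whole tissue, fewer cells of a type and less RNA per cell cannot be told apart. Cardiac markers summed to at most 24.6 FPKM, with Nppa at 0 in all libraries.

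The summed level of the 81 genes, which a few abundant ones dominate, was lowest in uremic aortas. It came to 5344, 4930, 5335, 4625 and 5825 FPKM in uremic rats 9, 17, 20, 27 and 28, against 9308, 7192, 10450 and 8894 FPKM in control rats with vitamin D (rats 36 to 39) and 6519, 9294, 11430, 7448 and 5958 FPKM in control rats 41, 42, 43, 44 and 46. Every uremic sum lay below every other, although control rat 46 came close. Of the 71 genes tested below, 28 had a positive difference against control and 26 against control with vitamin D, so a lower sum does not describe each gene. The most abundant genes of their families were Hspb1 in Hspb, Hsp90ab1 in Hsp90, Hspa5 in Hspa, Bag3 in Bag, Hspe1 in Hspd/Hspe, Dnaja1 in Dnaja, Dnajc8 in Dnajc, Dnajb4 in Dnajb, Hsph1 among the other Hsp rows and Hsf1 in Hsf.

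Of the 81 genes, 71 had at least 1 FPKM in 4 libraries and were tested. The other 10 never passed 0.387 FPKM: Dnajb8, Dnajc5g, Hspb3 and Hspb9 were listed at 0 in all libraries, and Dnajb7, Dnajb13, Dnajc5b, Dnajc6, Hsf2bp and Hspa8 were at or near 0. The low Hspa8 row carries the symbol of the abundant constitutive Hsp70, but in the rn5 build it lies on chromosome 11, on another chromosome than Hspa8 in the RefSeq gene table, so it gives no level for that gene here. The row Hspa1b has an rn5 locus of 320 kb (chromosome 20, 6718276 to 7038454) that the testis-type gene Hspa1l shares, and no row is named Hspa1a, its near-identical neighbour. How the reads of these copies were divided is not known, and their values are uncertain in that sense.

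The first comparison set uremic against control aortas and asks which chaperones differ when uremia and vitamin D act together. Limma (moderated test across all genes, Benjamini-Hochberg adjusted p under 0.05) called 22 of the 71 tested genes (31.0%, against 21.9% of all genes), 19 lower and 3 higher. That is 26.8% lower and 4.23% higher, against 10.5% and 11.4% of all 9957 genes tested. No overlap between the groups was seen for 10 lower genes (14.1%, against 7.32% of all genes) and 3 higher ones (4.23%, against 8.38%). Without control rat 42 the count of lower genes was 11, without control rat 43 it was 12, and without uremic rat 9 the count of higher genes was 5. The median difference on the scale of log2(FPKM + 1) was -0.08 over the tested chaperones and 0.005 over all genes. The 19 lower genes were Hspb6, Dnajb4, Dnajb2, Hspa2, Dnajb5, Hspe1, Hspa1b, Hsp90aa1, Bag2, Hspa4, Hspbp1, Hspb1, Dnaja4, Dnajc4, Bag3, Dnajb1, Hspa1l, Hspd1 and Hsph1, and the 3 higher ones were Dnajb9, Bag4 and Dnajc3.

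The second comparison set uremic aortas against control aortas with vitamin D. It shares the uremic libraries with the first, so the calls of one are no independent support for the other. Limma called 19 of 71 (26.8%, against 13.2% of all 9916 genes). All 19 were lower (6.03% of all genes) and 0 were higher (7.19% of all genes), and voom on recovered reads called 0 higher as well. At an unadjusted p under 0.05, 2 genes were higher (2.82%, against 14.9%) and 27 lower (38%, against 13.8%). In 17 of the 71 (23.9%, against 5.69% of all genes) every uremic rat lay below every control rat with vitamin D, and in 1, Dnajc9, every uremic rat lay above (1.41%, against 7.06%). Without uremic rat 27 Dnajb11 was called higher, and without rat 39 of the vitamin D group Hspbap1 was. The genes called lower were Hsp90aa1, Hspa1b, Dnaja4, Hsph1, Dnaja1, Hspe1, Hspd1, Bag3, Hspb1, Bag2, Dnajb5, Hsp90ab1, Hspa9, Dnajb4, Dnajb2, Hspa4, Hspb6, Dnajb1 and Hspa4l. The median difference was -0.11 over the tested chaperones and 0.0058 over all genes.

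**Figure D1:**
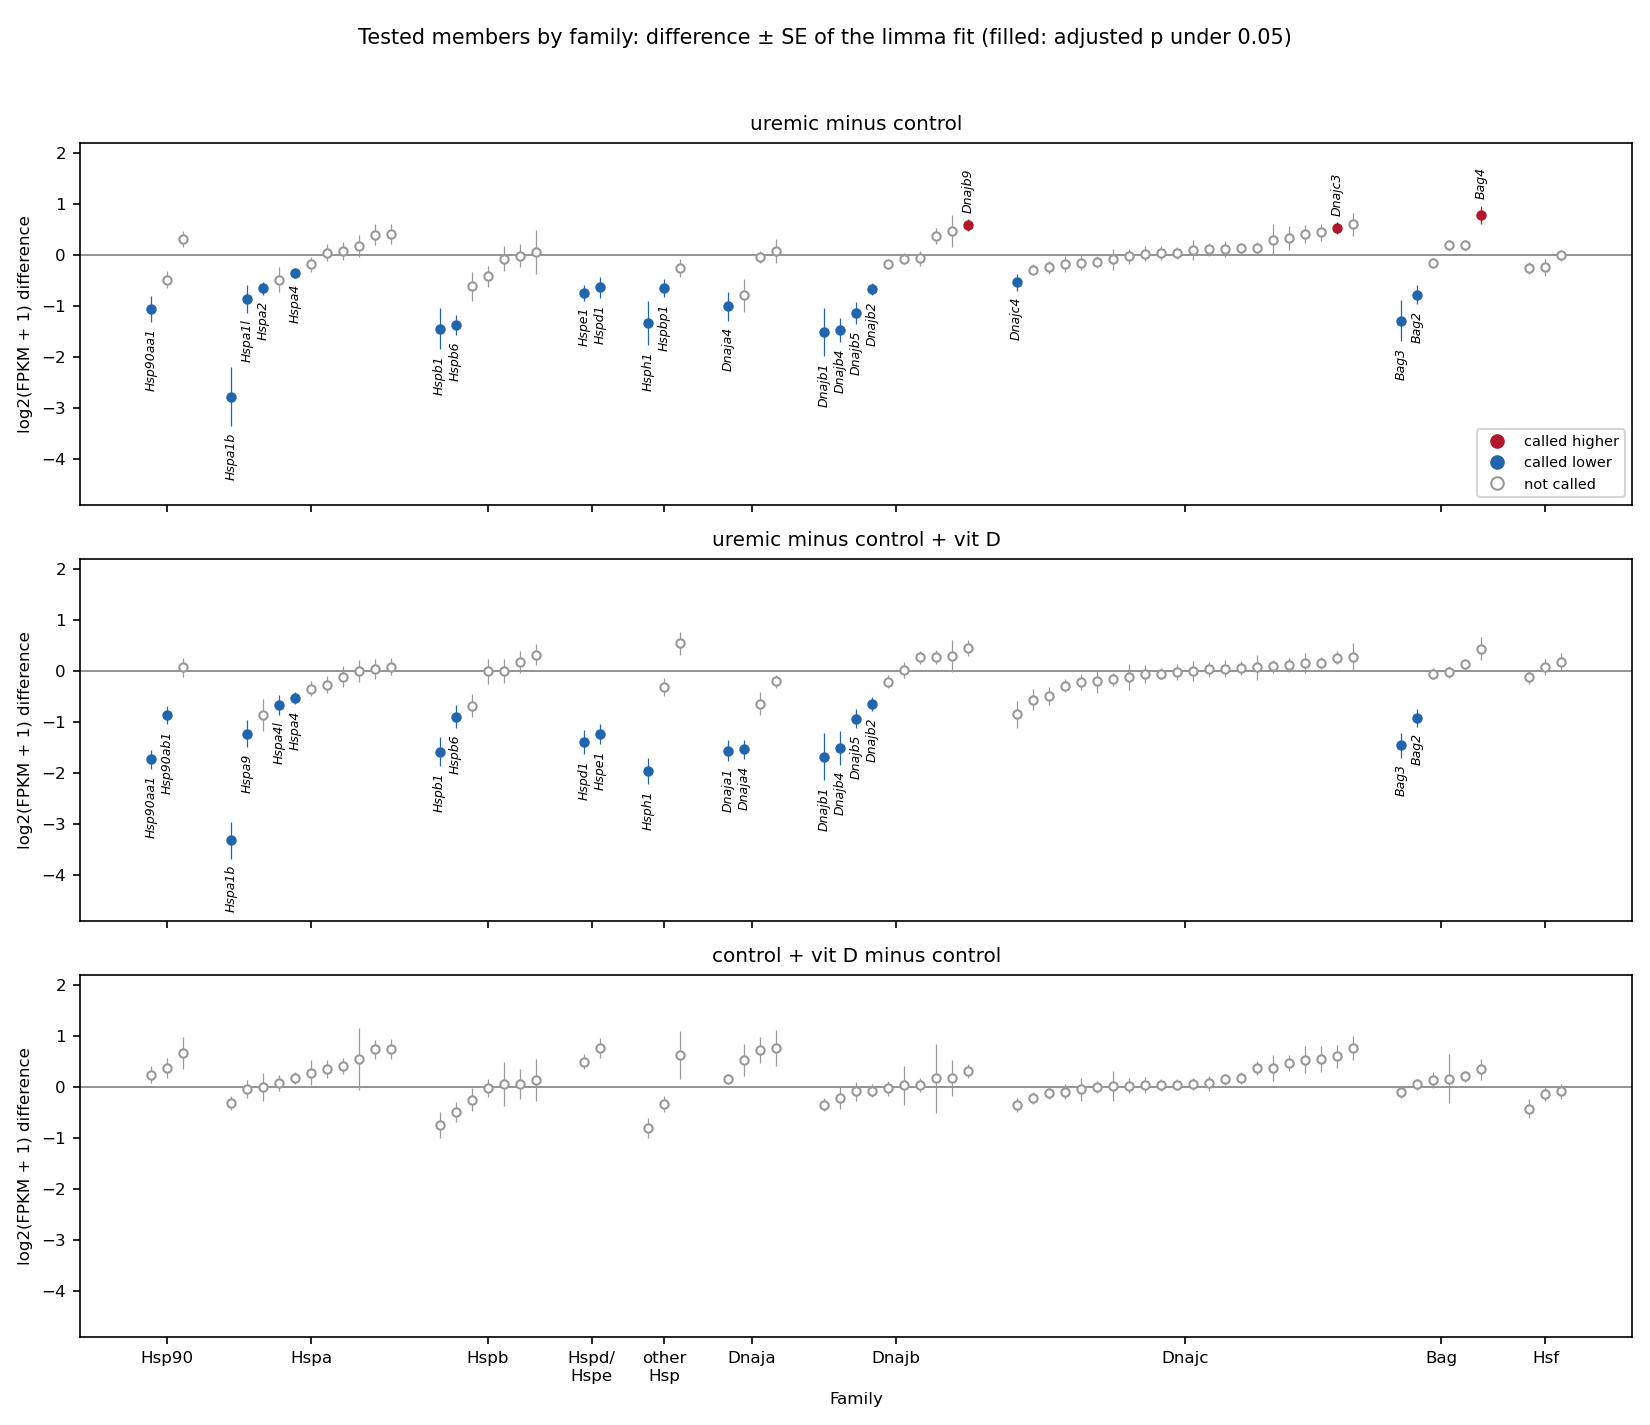
Difference in log2(FPKM + 1) ± SE of the limma fit for each of the 71 tested genes, grouped by family on the horizontal axis, in the 3 comparisons. Filled points passed an adjusted p of 0.05. The 19 filled points below 0 against control lie in all families but Hsf. The 19 against control with vitamin D lie in all but Dnajc and Hsf. Hspa and Dnajb hold the most, 4 each in both uremic comparisons. Most of the 22 Dnajc points lie near 0, and no point is filled in control with vitamin D against control.

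The strongest difference was that of Hspa1b, the stress-inducible cytosolic Hsp70. It had 11.8, 7.04, 10.3, 8.99 and 28.2 FPKM in uremic rats 9, 17, 20, 27 and 28, against 163, 101, 199 and 79.2 FPKM in control rats with vitamin D and 48.3, 205, 273, 79.2 and 22.3 FPKM in control rats. All uremic values were low, rat 28 being the highest of them, and of the other rats only control rat 46 fell into their range. Uremic aortas averaged 13.3 ± 8.52 FPKM (SD, n = 5), 9.46-fold below control aortas at 126 ± 108 FPKM (n = 5; log2 -2.78, SE 0.58, limma adjusted p = 0.00471). They lay 10.2-fold below control aortas with vitamin D at 136 ± 55.4 FPKM (n = 4; log2 -3.32, SE 0.36, limma adjusted p = 5.04e-04).

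Some partners of Hsp70 in the cytosol were lower as well, but not all. Of 6 tested Bag genes 2 were called lower, 1 higher and 3 were not called against control. Over all genes 10.5% were lower and 11.4% higher. Dnajb1, the main heat-inducible J protein, had 34.7, 31.0, 28.7, 29.1 and 38.9 FPKM in uremic rats, against 129, 110, 281 and 31.1 FPKM in control rats with vitamin D and 36.1, 205, 282, 83.2 and 41.2 FPKM in control rats. Hsph1, the Hsp110 exchange factor, had 56.7, 56.1, 72.3, 46.8 and 105 FPKM in uremic rats, against 217, 196, 409 and 243 FPKM in control rats with vitamin D and 83.5, 340, 403, 137 and 75.9 FPKM in control rats. Uremic rats formed a narrow low band for Dnajb1, while rats 38, 42 and 43 stood several-fold above it and rats 39, 41 and 46 stood within or just above it. For Hsph1 all 4 control rats with vitamin D lay above all uremic rats, and uremic rat 28 overlapped control rats 41 and 46.

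Bag3, which links Hsp70 to small heat shock proteins and to the removal of damaged filaments in muscle, had 125, 145, 136, 118 and 169 FPKM in uremic rats, against 405, 280, 687 and 267 FPKM in control rats with vitamin D and 233, 581, 918, 258 and 138 FPKM in control rats. Control rat 46 was the only rat outside the uremic group inside the uremic range. Uremic aortas averaged 139 ± 20.1 FPKM, against 410 ± 195 FPKM with vitamin D (log2 -1.46, SE 0.25, limma adjusted p = 0.00462) and 426 ± 322 FPKM in controls (log2 -1.29, SE 0.40, limma adjusted p = 0.0366). Bag2, an inhibitor of the ubiquitin ligase that works with Hsp70, averaged 29.4 ± 6.83 FPKM in uremic aortas, against 55.4 ± 5.73 FPKM with vitamin D (limma adjusted p = 0.00765) and 51.1 ± 11.8 FPKM in controls (limma adjusted p = 0.0116). No uremic rat reached a rat of either other group for Bag2.

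**Figure D2:**
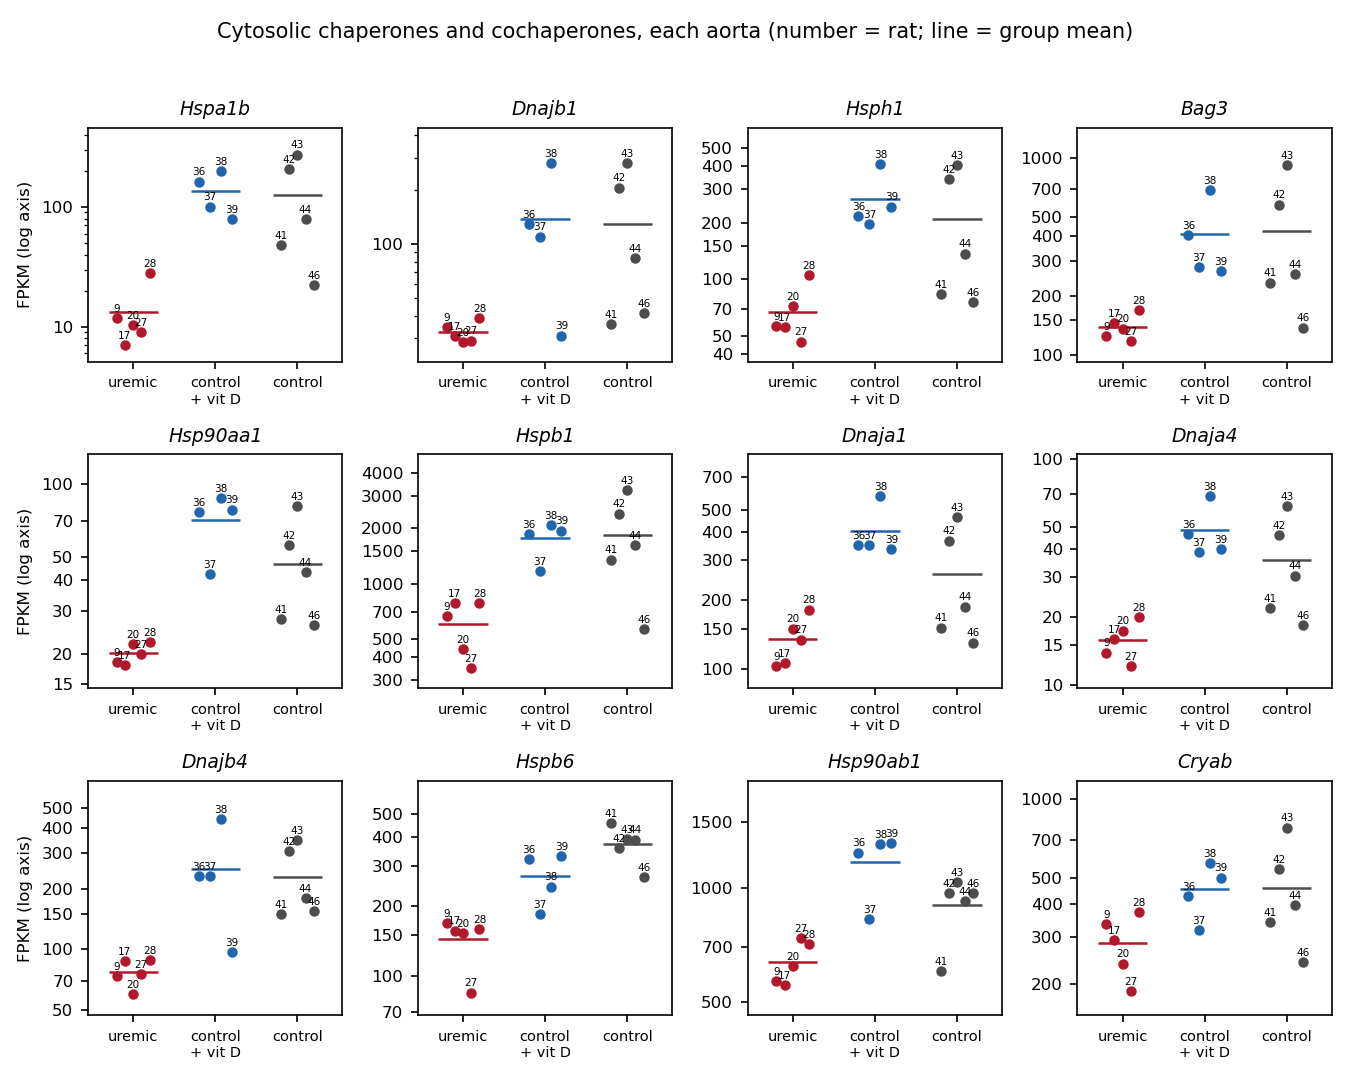
FPKM (log axis) of 12 cytosolic chaperone genes in each aorta, with uremic rats left, control rats with vitamin D in the middle and control rats right; numbers are rats and lines are group means. Uremic rats form a low band, and in most panels rats 38, 42 and 43 stand highest, as for Dnajb1 with 281, 205 and 282 FPKM.

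The cytosolic Hsp90 genes were lower too. Hsp90aa1 (chromosome 6, 144182011 to 144187540 in rn5), the inducible isoform, had 18.5, 17.9, 21.8, 19.9 and 22.3 FPKM in uremic rats, against 76.7, 42.5, 87.4 and 78.3 FPKM in control rats with vitamin D and 27.7, 56.1, 80.7, 43.4 and 26.2 FPKM in control rats. No uremic rat overlapped any other rat. The difference was -1.73 against control with vitamin D (SE 0.19, limma adjusted p = 5.04e-04) and -1.06 against control (SE 0.26, limma adjusted p = 0.0105). Hsp90ab1, the constitutive and far more abundant isoform, had 566, 554, 621, 738 and 712 FPKM in uremic rats, against 1242, 828, 1311 and 1316 FPKM in control rats with vitamin D and 602, 968, 1037, 924 and 971 FPKM in control rats. Uremic rats lay below all rats with vitamin D (log2 -0.86, SE 0.18, limma adjusted p = 0.0122) but overlapped control rat 41. The difference from control did not pass the test (log2 -0.48, SE 0.16, limma adjusted p = 0.0532; 0.00922 without control rat 41, and also under 0.05 without uremic rat 27).

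Among the J proteins of the Dnaja family, Dnaja1, a general Hsp70 partner, had 103, 106, 150, 134 and 182 FPKM in uremic rats, against 348, 350, 575 and 336 FPKM in control rats with vitamin D and 152, 366, 465, 188 and 130 FPKM in control rats. Uremic rats lay below all rats with vitamin D (log2 -1.56, SE 0.21, limma adjusted p = 0.00150) and overlapped the control rats (limma adjusted p = 0.0954; 0.0360 without control rat 46). Dnaja4 averaged 15.8 ± 3.05 FPKM in uremic aortas, against 48.5 ± 14.0 FPKM with vitamin D (log2 -1.54, SE 0.19, limma adjusted p = 9.57e-04) and 35.7 ± 18.2 FPKM in controls (limma adjusted p = 0.0226; 0.0597 without control rat 42). Dnaja2, a close relative of Dnaja1, averaged 50.3 ± 7.59, 57.6 ± 3.97 and 51.4 ± 2.66 FPKM in uremic, control with vitamin D and control aortas and did not pass either test.

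In the Dnajb family, Dnajb4, a J protein known from heart and skeletal muscle, had 73.5, 87.6, 60.2, 75.3 and 88.6 FPKM in uremic rats, against 231, 231, 442 and 97.0 FPKM in control rats with vitamin D and 150, 308, 347, 180 and 155 FPKM in control rats. Every uremic rat lay below every other rat (log2 -1.51, SE 0.33, limma adjusted p = 0.0139 against control with vitamin D; log2 -1.47, SE 0.23, limma adjusted p = 6.95e-04 against control). Dnajb5 averaged 45.7 ± 10.7 FPKM in uremic aortas, against 87.7 ± 20.2 FPKM with vitamin D (limma adjusted p = 0.0108) and 104 ± 31.1 FPKM in controls (limma adjusted p = 0.00293). Dnajb2, which hands ubiquitinated clients on, averaged 111 ± 12.5 FPKM in uremic aortas, against 176 ± 33.1 FPKM with vitamin D (limma adjusted p = 0.0150; 0.0502 without rat 36) and 178 ± 23.7 FPKM in controls (limma adjusted p = 0.00174). For both genes no uremic rat reached a rat of another group.

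Dnajb1 fell 4.24-fold relative to control with vitamin D (limma adjusted p = 0.0334) and 3.99-fold relative to control (limma adjusted p = 0.0392), but the calls ended in most fits that left out 1 rat. The log2 difference in those fits stayed between -1.85 and -1.12 against control and between -2.26 and -1.22 against control with vitamin D. Its call against control ended without any 1 of the 5 uremic rats or control rats 42, 43 or 44 (adjusted p up to 0.0947). That against control with vitamin D ended without rat 9, 17, 20, 28, 36, 37 or 38 (adjusted p up to 0.0958). The call of Bag3 against control ended without any 1 of the uremic rats or control rats 42 or 43 (up to 0.0905). That of Hsph1 ended without rat 9, 17, 20, 27, 42, 43 or 44 (up to 0.104). Against control with vitamin D both held in each of the 9 fits that left a rat out. Hsph1 averaged 67.4 ± 23.0 FPKM in uremic aortas, against 266 ± 97.0 FPKM with vitamin D (log2 -1.96, SE 0.26, limma adjusted p = 0.00129) and 208 ± 153 FPKM in controls (log2 -1.33, SE 0.43, limma adjusted p = 0.0434).

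The HSE letters were looked for in the RefSeq promoter windows (250 bases before and 50 bases after the annotated start, GRCr8 build). Of the 81 genes 62 had a window. A run of 3 alternating units (GAA, TTC and GAA with NN between neighbours, either strand) stood in 5 of the 62 (8.06%, against 0.798% of 33469 windows of the same length): Dnaja1, Hspa8, Hspd1, Hspe1 and Hsph1. A pair of units, GAANNTTC or TTCNNGAA, which every run of 3 also contains, stood in 17 of 62 (27.4%, against 15.9%). The Hspa8 window, matched by symbol, is that of the RefSeq gene on chromosome 8 and not of the low expression row. It is counted in the 62, the 5 and the 17. Of the genes called lower in uremic than in control aortas 16 had a window and 8 of them held a pair, and of those lower than in control with vitamin D 10 of 16 did. Hspd1 and Hspe1 share their matches at the same positions and are each counted in these numbers. A match describes letters and is not a shown binding site. Among the genes described so far, Dnaja4, Dnajb2, Dnajb5, Bag2 and Hsp90ab1 had a window with 0 matches to the pair, and Bag3 had 1 match. Hspa1b, Hsp90aa1 and Dnajb4 had no window in the promoters used here, so their letters were not searched. Windows with matches, of 4 genes and of Hspe1, are given to let the letters be seen beside the levels, with all matches to the pair in capitals:
Hsph1 (chr12:10427118-10427417, plus strand): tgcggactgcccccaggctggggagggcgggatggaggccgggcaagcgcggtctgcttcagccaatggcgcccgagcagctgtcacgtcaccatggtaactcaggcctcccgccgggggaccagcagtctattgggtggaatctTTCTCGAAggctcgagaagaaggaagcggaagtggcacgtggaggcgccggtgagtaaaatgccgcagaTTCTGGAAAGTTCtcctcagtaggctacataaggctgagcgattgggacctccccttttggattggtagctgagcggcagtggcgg
Dnaja1 (chr5:60638154-60638453, plus strand): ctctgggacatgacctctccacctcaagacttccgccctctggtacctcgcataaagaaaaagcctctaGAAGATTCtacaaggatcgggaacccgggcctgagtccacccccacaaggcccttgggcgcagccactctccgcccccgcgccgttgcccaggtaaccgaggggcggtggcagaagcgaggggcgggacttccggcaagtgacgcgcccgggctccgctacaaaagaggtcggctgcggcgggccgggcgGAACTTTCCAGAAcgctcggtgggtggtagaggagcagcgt
Dnajb1 (chr19:41431092-41431391, minus strand): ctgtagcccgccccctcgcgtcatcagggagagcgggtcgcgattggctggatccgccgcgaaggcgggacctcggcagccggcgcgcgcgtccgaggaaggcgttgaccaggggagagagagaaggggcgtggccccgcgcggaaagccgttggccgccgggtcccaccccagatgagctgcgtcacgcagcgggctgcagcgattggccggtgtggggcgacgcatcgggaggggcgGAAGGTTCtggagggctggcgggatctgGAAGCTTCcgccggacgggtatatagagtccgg
Hspb1 (chr12:26432252-26432551, minus strand): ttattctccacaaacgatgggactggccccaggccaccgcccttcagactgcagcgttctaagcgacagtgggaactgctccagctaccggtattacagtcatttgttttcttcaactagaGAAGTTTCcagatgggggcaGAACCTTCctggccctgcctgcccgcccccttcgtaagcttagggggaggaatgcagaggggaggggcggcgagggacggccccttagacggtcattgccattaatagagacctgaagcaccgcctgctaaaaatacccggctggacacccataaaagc
Hspe1 (chr9:64084077-64084376, plus strand): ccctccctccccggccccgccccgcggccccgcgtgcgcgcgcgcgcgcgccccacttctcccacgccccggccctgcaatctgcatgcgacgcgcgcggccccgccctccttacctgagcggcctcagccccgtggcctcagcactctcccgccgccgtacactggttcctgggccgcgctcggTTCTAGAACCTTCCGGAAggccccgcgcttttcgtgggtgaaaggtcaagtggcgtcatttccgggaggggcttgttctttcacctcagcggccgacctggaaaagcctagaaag
Overlapping pairs in Hsph1, Dnaja1 and Hspe1 merge into longer runs, while Dnajb1 and Hspb1 hold separate pairs.

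Small heat shock proteins were abundant and unequal in their behaviour. Hspb1 (Hsp27, a chaperone of actin filaments; chromosome 12, 25837102 to 25838663 in rn5) had 665, 786, 440, 346 and 785 FPKM in uremic rats, against 1861, 1172, 2079 and 1938 FPKM in control rats with vitamin D and 1348, 2398, 3215, 1611 and 568 FPKM in control rats. Uremic rats lay below every rat but control rat 46. The difference was -1.58 against control with vitamin D (SE 0.28, limma adjusted p = 0.00518) and -1.45 against control (SE 0.40, limma adjusted p = 0.0214). The second call ended without uremic rat 20, control rat 42 or control rat 43 (adjusted p up to 0.0563).

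Hspb6 (Hsp20, a target of cyclic nucleotide kinases in vascular relaxation) had 170, 157, 153, 84.7 and 160 FPKM in uremic rats, against 319, 185, 243 and 329 FPKM in control rats with vitamin D and 458, 356, 391, 388 and 268 FPKM in control rats. No uremic rat reached another group, and unlike the inducible genes Hspb6 was not highest in control rat 43. It was the chaperone with the smallest adjusted p against control (log2 -1.38, SE 0.20, limma adjusted p = 3.51e-04). It fell by 0.89 relative to control with vitamin D (SE 0.23, limma adjusted p = 0.0271; up to 0.0872 without rats 36, 38 or 39). Smooth muscle markers stood lower in the uremic libraries as well. Of 10 markers 6 were called lower against control and 2 against control with vitamin D (10.5% and 6.03% of all genes). Uremic rat 27 had the lowest marker sum, 9986 FPKM, and the lowest Hspb6. Their part in the Hspb6 result was not tested.

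Cryab (alpha B-crystallin, a small heat shock protein of muscle) had 335, 292, 238, 188 and 373 FPKM in uremic rats, against 429, 320, 572 and 503 FPKM in control rats with vitamin D and 342, 544, 779, 396 and 241 FPKM in control rats. The groups overlapped and neither difference passed the test (limma adjusted p = 0.0690 against control with vitamin D and 0.139 against control). Both calls turned on single choices: the difference from control passed without control rat 46 (limma adjusted p = 0.0381), and that from control with vitamin D passed without rat 37 (0.0337) and after scaling all libraries to 1 total (0.0161). Hspb8, the small heat shock protein that works with Bag3, averaged 23.8 ± 7.97, 22.9 ± 4.22 and 23.3 ± 5.27 FPKM in uremic, control with vitamin D and control aortas. Its differences were -0.001 (SE 0.23) against control with vitamin D and -0.01 (SE 0.23) against control on the log2 scale. Hspb7, a muscle member, ranged between 60.2 and 155 FPKM in uremic rats, 81.0 and 117 FPKM with vitamin D and 30.4 and 200.3 FPKM in controls, with no difference past the test. Hspb2 lies 1044 bases from Cryab on chromosome 8 in rn5 and averaged 17.3 ± 5.29, 14.9 ± 3.12 and 18.4 ± 6.31 FPKM.

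Other Hsp70 family genes differed less. Hspa4, an Hsp110-type exchange factor, averaged 73.9 ± 4.14 FPKM in uremic aortas, against 108 ± 15.8 FPKM with vitamin D (limma adjusted p = 0.0167; 0.0552 without rat 38) and 94.7 ± 7.36 FPKM in controls (limma adjusted p = 0.0174). All uremic rats lay below all others. Hspa2, best known for its role in the testis, averaged 23.8 ± 4.03 FPKM in uremic aortas, against 30.4 ± 5.32 FPKM with vitamin D, which did not pass (limma adjusted p = 0.167), and 37.8 ± 3.42 FPKM in controls (log2 -0.65, SE 0.12, limma adjusted p = 0.00250). Hspbp1, which releases nucleotide from Hsp70, averaged 13.0 ± 2.77, 16.2 ± 1.81 and 21.0 ± 3.88 FPKM in uremic, control with vitamin D and control aortas and passed against control (limma adjusted p = 0.0192). Whether the comparisons differ was not tested. Hspa1l and Hspa4l stayed under 4 FPKM. Hspa1l was called lower against control (limma adjusted p = 0.0399; up to 0.0969 without rat 17, 27, 42, 43 or 44). Hspa4l was called lower against control with vitamin D (limma adjusted p = 0.0446; up to 0.132 without rat 9, 20, 27, 28, 36, 38 or 39).

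Rats of 1 group differed in these genes. Among the 19 genes lower in uremic than in control aortas, control rat 43 had the highest control value for 13 (18.6% of all tested genes) and control rat 46 the lowest for 13 (25.3% of all genes). Rat 28 was the highest uremic rat for 9 of the 19 (15.1% of all genes). Among the 19 genes lower than in control with vitamin D, rat 38 was the highest rat of that group for 13 (26.1% of all genes). The median coefficient of variation of the 19 genes lower than in control was 23.2% in uremic and 30% in control aortas, and it was lower in uremic aortas for 11 of the 19 (57.9%, against 47% of all genes). Single genes ran wider: Dnajb1 varied by 13.2% in uremic, 75.8% in control with vitamin D and 84.2% in control aortas, while Hspa1b varied by 64.2%, 40.9% and 86.1%. No label gives the order of dissection, the time to freezing or a batch, so their part in these values was not tested.

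**Figure D3:**
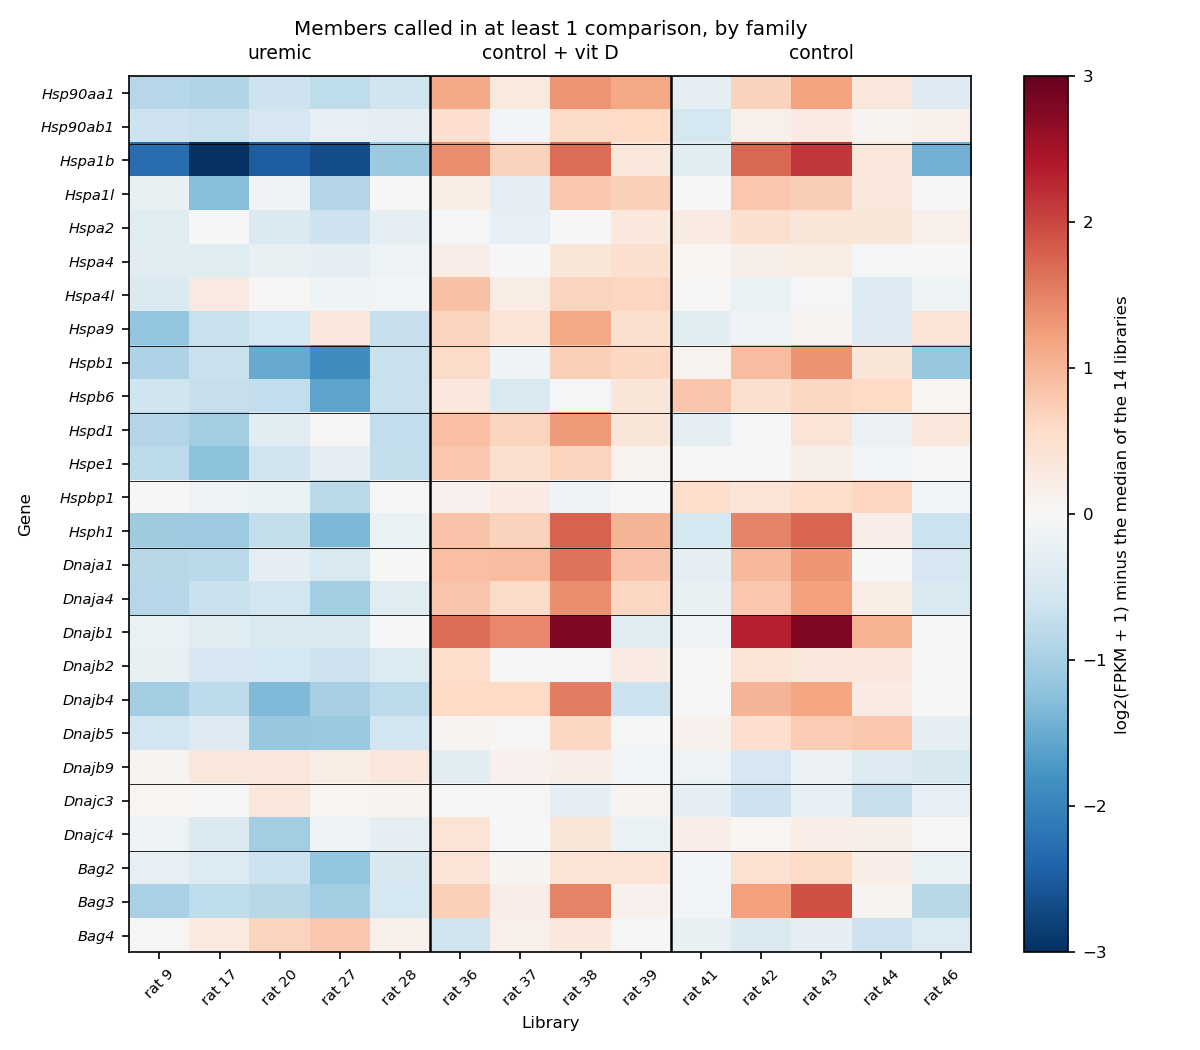
Each row is 1 of the chaperone genes called in at least 1 comparison, grouped by family; each column is 1 library, with uremic rats left and control rats right. Colour gives log2(FPKM + 1) minus the median over the 14 libraries: the 5 uremic columns are mostly blue, and the darkest red is found in Dnajb1 of rats 38, 42 and 43. Paler red is found in Hspa1b, Hsph1, Bag3 and other genes, also in other rats.

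Immediate early genes, which respond within minutes to many stimuli, moved in both directions beside the chaperones. Atf3, a stress-induced transcription factor, had 27.6, 15.8, 26.5, 13.1 and 28.3 FPKM in uremic rats, against 122, 158, 327 and 5.66 FPKM in control rats with vitamin D and 41.2, 570, 423, 164 and 88.0 FPKM in control rats. Rats 38, 42 and 43, highest for Dnajb1, were also the 3 highest for Atf3, and rat 39 was lowest of its group for both. Atf3 and Jun fell relative to control (limma adjusted p = 0.00334 and 4.02e-05), while Egr2, Myc, Ier3 and Junb were called higher, in all 2 of 13 tested genes lower and 4 higher (10.5% and 11.4% of all genes). Against control with vitamin D 1 was lower (Jun, limma adjusted p = 0.0122) and 6 were higher (6.03% and 7.19% of all genes), among them Junb, Egr2 and Ier3. Among 9 other stress-induced genes, Gadd45a and Gadd45b rose relative to both groups (Gadd45a to 31.8 ± 7.56 FPKM, against 15.1 ± 3.24 with vitamin D and 14.5 ± 2.06 in controls), Srxn1 rose and Ier5 fell relative to control. In all 3 of the 9 were higher and 1 lower against control (11.4% and 10.5% of all genes). Against control with vitamin D 2 were higher and 0 lower (7.19% and 6.03% of all genes).

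Cochaperones and clients' partners that the symbol rule does not reach were read from fixed lists. Of 21 tested Hsp90 and Hsp70 partners, 8 were lower and 0 higher in uremic than in control aortas (median log2 -0.40), where 10.5% of all genes were lower and 11.4% higher. Against control with vitamin D 7 were lower and 0 higher (median log2 -0.32), where 6.03% of all genes were lower and 7.19% higher. Fkbp4, an Hsp90-bound immunophilin of steroid receptors, had 59.1, 40.8, 77.3, 44.4 and 79.8 FPKM in uremic rats, against 178, 113, 176 and 160 FPKM in control rats with vitamin D and 92.6, 132, 173, 138 and 137 FPKM in control rats. No uremic rat overlapped another (limma adjusted p = 0.00338 against control with vitamin D and 0.00166 against control). Itgb1bp2 (melusin, a muscle Hsp90 partner), Stub1 (the ubiquitin ligase CHIP) and Cdc37l1 followed against control, with 6.21 ± 1.73 against 20.6 ± 7.06 FPKM for Itgb1bp2. Stip1, which bridges Hsp70 and Hsp90, Chordc1 and Ptges3 (p23) followed against control with vitamin D, with 75.8 ± 19.4 against 163 ± 31.2 FPKM for Stip1, which was also called against control (limma adjusted p = 0.0303).

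The TRiC chaperonin, which folds actin and tubulin, and prefoldin were read as 1 list. Of 13 tested genes 2 were lower than in control aortas (Pdcl3 and Cct4; 10.5% of all genes). In turn 9 of 13 were lower than in control aortas with vitamin D (6.03% of all genes), and 0 were higher in either comparison. Cct4 averaged 50.7 ± 2.93 FPKM in uremic aortas, against 75.2 ± 6.19 FPKM with vitamin D (limma adjusted p = 0.00715) and 63.2 ± 5.42 FPKM in controls (limma adjusted p = 0.0356). Cct6a, Cct5 and Cct3 were the other 3 with the smallest adjusted p against control with vitamin D, with 14.6 ± 1.24 against 25.6 ± 4.73 FPKM for Cct6a.

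No chaperone of the endoplasmic reticulum among the genes chosen by symbol was called lower, and 2 were called higher than in control aortas. Over all genes 10.5% were lower and 11.4% higher than in control aortas. Whether the counts of these few genes differ from those shares was not tested. Dnajb9 (ERdj4, a cofactor of BiP that represses the sensor IRE1; chromosome 6, 73754559 to 73758774 in rn5) had 27.2, 32.7, 33.1, 30.0 and 32.2 FPKM in uremic rats, against 20.2, 28.4, 29.9 and 24.4 FPKM in control rats with vitamin D and 23.1, 18.0, 22.8, 19.6 and 18.3 FPKM in control rats. All uremic rats stood above all control rats (log2 0.59, SE 0.11, limma adjusted p = 0.00220) and overlapped those with vitamin D (limma adjusted p = 0.207). Dnajc3 (p58IPK, another lumenal cofactor of BiP) had 48.0, 46.4, 58.7, 47.8 and 49.5 FPKM in uremic rats, against 45.8, 47.6, 37.2 and 48.9 FPKM in control rats with vitamin D and 37.7, 29.8, 38.6, 28.2 and 38.6 FPKM in control rats. Again uremic rats lay above control rats (log2 0.53, SE 0.12, limma adjusted p = 0.00769) and among those with vitamin D (limma adjusted p = 0.442).

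Hspa5 (BiP, the Hsp70 of the endoplasmic reticulum) had 485, 354, 662, 308 and 493 FPKM in uremic rats, against 481, 437, 360 and 505 FPKM in control rats with vitamin D and 336, 262, 316, 334 and 441 FPKM in control rats. The groups overlapped and neither difference passed (limma adjusted p = 0.989 and 0.164). Hsp90b1 (GRP94) averaged 815 ± 137, 775 ± 135 and 654 ± 120 FPKM in uremic, control with vitamin D and control aortas, with limma adjusted p = 0.836 and 0.173. Of 17 other folding genes of this compartment 1 was called higher in each uremic comparison and 0 lower. Over all genes 11.4% were higher and 10.5% lower against control, and 7.19% and 6.03% against control with vitamin D. The gene called higher was Sdf2l1, a partner of BiP. It averaged 17.5 ± 8.93 FPKM in uremic aortas, against 6.31 ± 1.79 FPKM with vitamin D (limma adjusted p = 0.0205) and 3.79 ± 2.77 FPKM in controls (limma adjusted p = 0.00187).

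The letters of the endoplasmic reticulum stress element, given as CCAAT and CCACG with 9 bases between them on either strand, stood in 3 of the 62 windows, Dnajc3, Hsp90b1 and Hspa5 (4.84%, against 0.0657% of all windows). The window of Hspa5, which did not pass the test, and that of Dnajc3, which rose relative to control, both hold 1 match, shown in capitals:
Hspa5 (chr3:38452766-38453065, plus strand): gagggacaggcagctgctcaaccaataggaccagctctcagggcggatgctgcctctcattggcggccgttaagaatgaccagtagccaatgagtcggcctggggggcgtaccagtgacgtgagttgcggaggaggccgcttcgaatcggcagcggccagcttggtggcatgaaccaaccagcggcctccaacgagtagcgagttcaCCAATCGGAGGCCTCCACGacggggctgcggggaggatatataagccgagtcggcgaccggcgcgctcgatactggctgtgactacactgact
Dnajc3 (chr15:102432417-102432716, plus strand): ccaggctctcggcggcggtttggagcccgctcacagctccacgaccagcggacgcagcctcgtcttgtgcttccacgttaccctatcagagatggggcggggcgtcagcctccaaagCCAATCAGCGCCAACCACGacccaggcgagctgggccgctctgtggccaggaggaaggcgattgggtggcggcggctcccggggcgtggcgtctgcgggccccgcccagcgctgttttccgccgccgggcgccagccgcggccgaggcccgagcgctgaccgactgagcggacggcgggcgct
Neither window holds a pair of heat shock units, and Dnajb9 holds neither motif in its window.

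**Figure D4:**
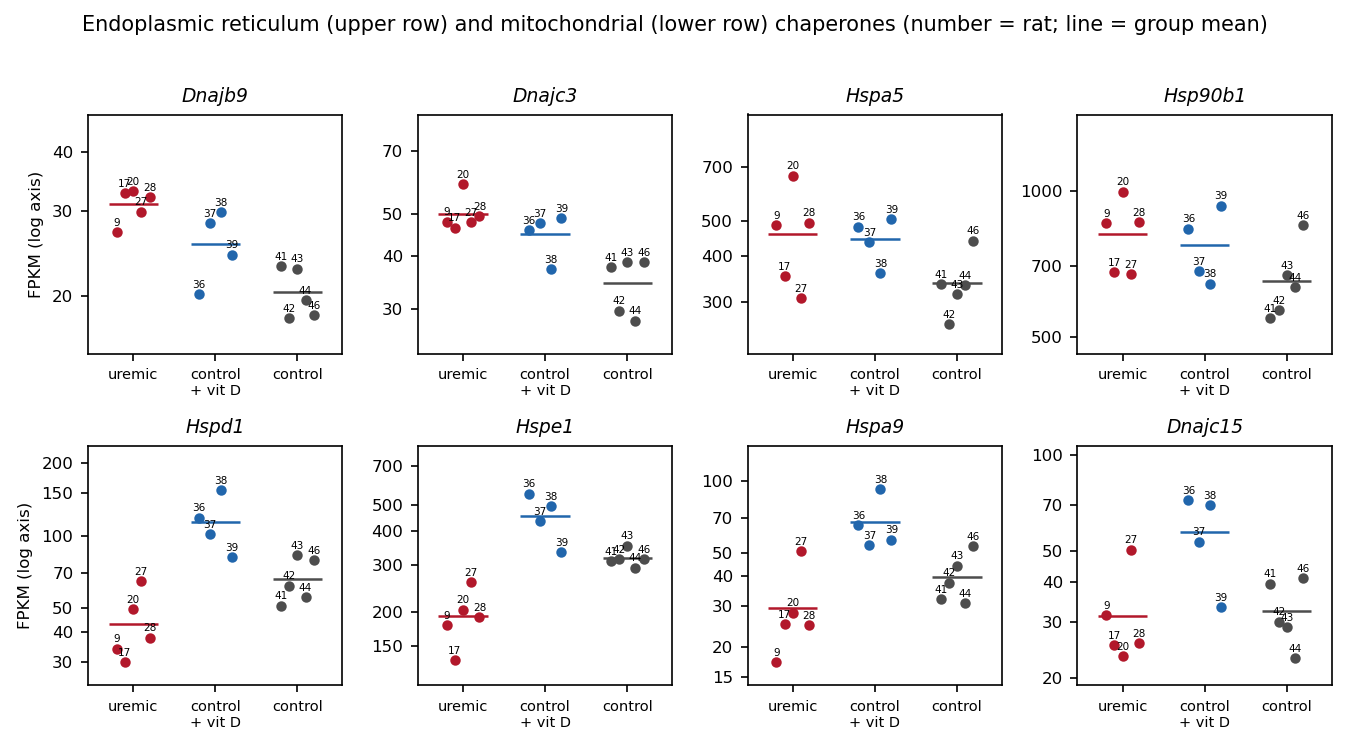
FPKM (log axis) of 4 chaperones of the endoplasmic reticulum (upper row) and 4 of mitochondria (lower row) in each aorta, uremic rats left and control rats right; numbers are rats and lines are group means. All 5 uremic rats lie above the 5 control rats for Dnajb9 and Dnajc3, and all 4 rats with vitamin D lie above the 5 control rats for Hspa9. Rat 27 is the highest uremic rat for the 4 mitochondrial genes.

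The mitochondrial chaperones Hspd1, Hspe1 and Hspa9 had their lowest mean in uremic aortas and their highest in control aortas with vitamin D. Dnaja3, the mitochondrial J protein, did not share this order against control, with 22.6 ± 7.04 FPKM in uremic, 35.7 ± 10.2 FPKM in control with vitamin D and 21.7 ± 8.37 FPKM in control aortas. Hspd1 and Hspe1, the chaperonin ring and its lid, encoded 288 bases apart on chromosome 9 in rn5 and read in opposite directions, share the 3 pairs of heat shock units printed above for Hspe1 at the same positions. The ring gene Hspd1 had 33.9, 30.0, 49.5, 64.6 and 37.7 FPKM in uremic rats, against 119, 101, 155 and 81.6 FPKM in control rats with vitamin D and 51.3, 62.0, 83.2, 55.6 and 79.0 FPKM in control rats. The lid gene Hspe1 had 180, 133, 205, 260 and 192 FPKM in uremic rats, against 553, 436, 497 and 335 FPKM in control rats with vitamin D and 311, 315, 355, 294 and 317 FPKM in control rats. For Hspe1 no uremic rat reached another group (log2 -1.24, SE 0.20, limma adjusted p = 0.00386 against control with vitamin D; log2 -0.74, SE 0.15, limma adjusted p = 0.00448 against control). For Hspd1 uremic rat 27 overlapped the control rats (log2 -1.40, SE 0.24, limma adjusted p = 0.00425 against control with vitamin D; log2 -0.64, SE 0.20, limma adjusted p = 0.0415 against control, up to 0.0973 without rat 9, 17, 28, 42, 43, 44 or 46).

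Hspa9 (mortalin, the mitochondrial Hsp70 of protein import) had 17.3, 25.1, 28.0, 51.0 and 24.8 FPKM in uremic rats, against 65.4, 54.0, 92.6 and 56.9 FPKM in control rats with vitamin D and 31.9, 37.5, 44.2, 30.6 and 53.4 FPKM in control rats. Uremic rats lay below all rats with vitamin D (limma adjusted p = 0.0123), and rat 27 alone overlapped the upper control values (limma adjusted p = 0.173, and 0.0157 without rat 27). Rat 27 had the highest brown fat marker sum of the uremic group, 600 FPKM (125 to 258 FPKM in the other 4). In rats 36, 37, 38 and 39 of the vitamin D group that sum was 964, 877, 1678 and 416 FPKM. In control rats 41, 42, 43, 44 and 46 it was 382, 327, 459, 347 and 824 FPKM. Over the 4 rats with vitamin D the sum and Hspd1 fall in the order 38, 36, 37, 39. Hspe1 falls in the order 36, 38, 37, 39 and Hspa9 in the order 38, 36, 39, 37. Control rat 46, highest of its group in that sum, was also its highest for Hspa9, while control rat 43 was highest for Hspd1 and Hspe1. Of the 8 brown fat markers 7 were in the table and Elovl3 was at 0 in all libraries. In the tests, 1 of 6 tested was called lower in uremic aortas against control and 4 of 6 against control with vitamin D (10.5% and 6.03% of all genes). White fat markers summed to 8735 FPKM in uremic rat 27 and 1741 to 3801 FPKM in the other uremic rats. That sum was 8076, 8717, 10490 and 3715 FPKM in rats 36, 37, 38 and 39, against 2868 to 7493 FPKM in control rats. Brown fat is rich in mitochondria, and the part of either fat in the mitochondrial chaperone values was not tested. Of 8 other mitochondrial folding genes, 1 was higher than in control, Htra2 (a protease), where 11.4% of all genes were higher. Against control with vitamin D 2 were lower, Timm44 and Clpb, where 6.03% of all genes were lower.

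Dnajc is the largest family here and the most varied in its roles. Of 22 tested genes 1 was higher (Dnajc3) and 1 lower (Dnajc4) in uremic than in control aortas, where 11.4% of all genes were higher and 10.5% lower. Against control with vitamin D 0 were called, but Dnajc4, Dnajc11 and Dnajc15 were called lower with 1 fit for all 3 groups and after scaling all libraries to 1 total, and Dnajc11 and Dnajc15 also without uremic rat 27. The mean of Dnajc4 was 9.78 ± 2.40 FPKM in uremic aortas, against 14.3 ± 1.03 FPKM in control aortas (limma adjusted p = 0.0341; up to 0.0699 without rat 17, 28, 41, 42, 43 or 44). Dnajc8, a splicing-associated J protein and the most abundant of the family, averaged 173 ± 22.0, 192 ± 17.4 and 210 ± 12.7 FPKM in uremic, control with vitamin D and control aortas and was not called. Bag4, an inhibitor of death receptor signalling, was the third gene called higher against control. Its level was low, at 2.23, 2.84, 3.97, 4.45 and 2.50 FPKM in uremic rats, against 1.68, 1.32, 1.57, 1.03 and 1.35 FPKM in control rats (log2 0.79, SE 0.18, limma adjusted p = 0.00720). Its values in control rats with vitamin D were 1.05, 2.47, 2.89 and 2.04 FPKM and overlapped the uremic ones (limma adjusted p = 0.237).

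Of 3 tested heat shock factors 0 were called in either uremic comparison. Over all genes 21.9% were called against control and 13.2% against control with vitamin D, and 0 of 3 does not set the factors apart from these shares. Hsf1 had 19.6, 18.9, 17.6, 16.2 and 22.6 FPKM in uremic rats, against 22.7, 16.3, 19.8 and 23.9 FPKM in control rats with vitamin D and 21.4, 25.4, 23.8, 22.6 and 20.2 FPKM in control rats. The groups overlapped (limma adjusted p = 0.653 against control with vitamin D and 0.137 against control), though with libraries scaled to the same total Hsf1 was called lower than in control (limma adjusted p = 0.0322). Hsf2 averaged 9.49 ± 1.01, 8.99 ± 1.77 and 9.49 ± 0.516 FPKM and Hsf4, a factor of the lens, 11.6 ± 2.16, 10.2 ± 2.50 and 14.0 ± 2.90 FPKM in uremic, control with vitamin D and control aortas. Neither Hsf2 nor Hsf4 passed a test. Hsf1 is activated as a protein, which transcript levels do not show.

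The third comparison set control aortas with vitamin D against control aortas and asks what vitamin D goes with when the kidneys are intact. Limma called 0 of 71 chaperones, against 0.134% of all 9693 genes (0.0103% higher and 0.124% lower), and voom on recovered reads called 0. At an unadjusted p under 0.05, 12 were higher (16.9%, against 9.23% of all genes) and 7 lower (9.86%, against 9.15%). The 2 genes without overlap between the groups were Hspa9 and Hspa4l (2.82%, against 2.37% of all genes), both higher, and 0 were lower without overlap (3.34% of all genes). Hspa9 averaged 67.2 ± 17.6 FPKM with vitamin D and 39.5 ± 9.44 FPKM in controls (log2 0.75, SE 0.19, limma adjusted p = 0.0958), and Hspa4l, an Hsp110-type protein, 2.73 ± 0.654 and 1.21 ± 0.242 FPKM (limma adjusted p = 0.0907). Hspd1 averaged 114 ± 31.1 FPKM with vitamin D and 66.2 ± 14.2 FPKM in controls (limma adjusted p = 0.0931). Hspbap1, which binds Hspb1, had 6.96, 4.92, 6.94 and 11.1 FPKM in control rats with vitamin D, against 11.5, 14.0, 14.4, 16.1 and 11.1 FPKM in control rats, and rats 39 and 46 overlapped (limma adjusted p = 0.0905). Without rat 39 Dnajc15, Hspd1 and Hspe1 were called higher and Hspbap1 lower, and without control rat 46 Dnaja3, Hspa9 and Hspd1 were called higher and Hspbap1 lower. Over all genes those fits called 393 of 9638 (4.08%) without rat 39 and 385 of 9610 (4.01%) without control rat 46, against 13 with all rats.

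Among the inducible cytosolic genes, Hspa1b, Dnajb1 and Bag3 were close in their means and wide in their spread between these 2 groups. Hspa1b averaged 136 ± 55.4 FPKM with vitamin D and 126 ± 108 FPKM in controls, Dnajb1 138 ± 104 and 129 ± 109 FPKM, and Bag3 410 ± 195 and 426 ± 322 FPKM. The differences on the log2 scale were 0.54 (SE 0.61), 0.17 (SE 0.68) and 0.17 (SE 0.48), and none passed the test. Hsp90aa1 averaged 71.2 ± 19.7 FPKM with vitamin D and 46.8 ± 22.6 FPKM in controls, and Dnaja1 402 ± 115 and 260 ± 147 FPKM. Hsph1 averaged 266 ± 97.0 and 208 ± 153 FPKM. These differences, higher with vitamin D, did not pass in limma either (limma adjusted p = 0.285, 0.262 and 0.501). In the authors' deposited table the q value was 0.012 for Hsp90aa1, 0.0329 for Dnaja1 and 0.387 for Hsph1. For uremic against control, 19 of the 81 genes had a q value under 0.05 in the authors' deposited table, and 17 of them were also called by limma. That table had 23 such genes for uremic against control with vitamin D, of which limma called 18. For control with vitamin D against control the authors' deposited table had 10, of which limma called 0. Higher in mean with vitamin D were Dnaja1, Dnaja3, Dnajc11, Dnajc15, Hsp90aa1, Hspa9, Hspd1 and Hspe1, and lower were Hspb11 and Hspbap1. The share of all rows under that q value was not counted for any pair of groups. The counts of 19, 23 and 10 therefore stand without a background.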

How the data were processed

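Polyadenylated RNA of 14 aortas was sequenced. The submitters' processing notes name Cuffdiff, Cufflinks 2.1.1, TopHat2 2.0.10, cutadapt 1.3 and build rn5; settings, annotation and strand handling are not given in the sources used here. The deposited table names no unit. Its values were read as FPKM, the unit the authors' tools write. The authors also deposited a q-value for each pair of groups, used only where named. Where a gene was above 0 in 8 or more libraries (11294 genes), its FPKM were whole multiples of 1 step within 0.1 read for 10896 (96.5%), which gave back read counts. Among 1000 genes with shuffled libraries 0.1% came out whole.

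The test was limma 3.58.1 in R 4.3.3 (lmFit, eBayes with trend, 2-sided) on log2(FPKM + 1), over genes that reached 1 FPKM in 4 or more compared libraries, each comparison on its own 2 groups, with Benjamini-Hochberg adjustment over all genes. SE, log2 differences and adjusted p are from this fit, and folds are ratios of mean FPKM. The fit was tested on simulated data. Since each library is 1 rat, p-values set group differences against the spread between rats, moderated across all genes. Tables and figures used Python 3.11.15, pandas 2.3.3, numpy 2.4.6 and matplotlib 3.10.9. Promoters came from RefSeq (GRCr8), matched by symbol. Genes named are those called, 19 chaperones listed for all comparisons, the most abundant of each family, those at 0 in every library and up to 4 called genes of each list. Dnaja2, Dnajb11, Dnajc9, Dnajc11, Dnajc15, Dnaja3, Hspa4l and Hspbap1 against control, Hspb2, Hspb7, Hspb11, Hsf2 and Hsf4 were named after their values were seen. The genes and lists were chosen with earlier results of these data known. Alternatives were pseudocount 0.1, no filter, a mean of at least 5 FPKM, same-total and median-ratio scaling, 1 fit for all 3 groups, leaving out each rat, and limma voom on recovered reads.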

Additional observations from a re-analysis of the deposited data

Results flagged for a closer look

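In 9 of 96 sets of values (1 gene in 1 group) the highest or lowest rat lay apart from the others by Dixon's criterion, and chance alone marks about 1 in 20 such sets. Among uremic rats, Hspa1b was high in rat 28 (28.2 FPKM, next 11.8), as was the unreliable Hspa8 row (0.255 FPKM, next 0.0648). Dnajc3 was high in uremic rat 20 (58.7 FPKM, next 49.5), and Hspb6 was low in uremic rat 27 (84.7 FPKM, next 153). Among control rats with vitamin D, rat 38 was high for Dnaja1 (575 FPKM, next 350) and Dnajb5 (118 FPKM, next 80.6). Rat 37 of that group was low for Bag2 (46.8 FPKM, next 57.7) and Hsp90ab1 (828 FPKM, next 1242). Among control rats, Hsp90ab1 was low in rat 41 (602 FPKM, next 924).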

How the results depend on the processing

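Under the 7 alternatives other than leaving out a rat, the number of lower chaperones ranged between 14 and 22 for uremic against control and between 18 and 24 for uremic against control with vitamin D, and that of higher ones between 2 and 4 and at 0. When each rat was left out in turn, uremic against control gave 11 to 20 lower and 3 to 5 higher, uremic against control with vitamin D gave 15 to 21 lower and 0 to 1 higher, and control with vitamin D against control gave 0 to 3 higher and 0 to 1 lower. Scaling each library to the same total moved the median of all genes to -0.10 against control and -0.12 against control with vitamin D, and the share of called genes that were higher to 34.6% (52.0% unscaled) and 33.6% (54.4% unscaled). Under it Hspa5 (-0.1362) and Hsp90b1 (-0.0697) turned direction against control with vitamin D, and Hspb8 (0.0161) in control with vitamin D against control; none was called. Left-out rats turned the direction of uncalled genes only. For Hspb8 the log2 range was -0.1376 to 0.1244 in uremic against control, -0.1262 to 0.1359 in uremic against control with vitamin D and -0.1218 to 0.0767 in control with vitamin D against control. In uremic against control with vitamin D it was -0.1376 to 0.1378 for Hspa5 and -0.0097 to 0.1678 for Hsp90b1. In control with vitamin D against control it was -0.1565 to 0.5248 for Bag3, -0.1351 to 0.2875 for Cryab, -0.2946 to 0.7503 for Dnajb1 and -0.2323 to 0.3925 for Hspb1. The cause was not tested. No paired analysis was possible because the rats of different groups share no numbers. Library depth limits the low genes most: Hspa1l rested on 1 to 42 reads per library.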
